A study of Bos grunniens and Bos grunniens x Bos taurus with 6 samples.

Results

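RGS5-led cells of the yak testis were cells in which RGS5 was counted more often than the contractile genes of smooth muscle. RGS5 (ENSBGRG00000002762) encodes a regulator of G protein signalling and is a common marker of pericytes. The cells were taken from all 6 single-cell libraries by raw counts of unique molecular identifiers (UMIs), each UMI standing for 1 captured RNA molecule. Barcodes under 300 genes, or with over 20% of UMIs from mitochondrial genes, were left out. A cell was a member with at least 2 RGS5 UMIs, more RGS5 than ACTA2, TAGLN and MYH11 together, and at most 1 UMI of PECAM1, CDH5, CD3D, PTPRC and UCHL1 together. By this rule 351 of 31071 cells kept were members (1.13%), and 277 of them (78.9%) came from yak of 6 months.

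The libraries were 1 from cattle-yak testis after sexual maturity (a cross labelled Bos grunniens x Bos taurus, age not given), 2 from prepubertal yak of 6 months (replicates 1 and 2), 2 from adolescent yak of 18 months (replicates 3 and 4) and 1 from a sexually mature yak aged 4 years (replicate 5). Per the labels' protocols, thawed frozen tissue was digested with collagenase IV, hyaluronidase and trypsin, passed through screens and cultured before loading. The samples carry "Germ cell" as a cell line tag, but the tissue is testis and the members are somatic. The labels do not say whether libraries of the same age came from separate animals, so each p-value measures only the spread between these samples, which may be technical.

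Pericytes wrap capillaries and small vessels beneath the endothelial basement membrane. Endothelial cells release PDGFB, which binds the receptor PDGFRB on pericytes and holds them at the vessel. Pericytes form a continuum with the contractile smooth muscle cells of larger vessels, and both are called mural cells. In the testis the wall of the seminiferous tubule also holds contractile, smooth muscle-like peritubular cells, and the interstitium holds fibroblast-like stroma.

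Library totals ran between 9575446 UMIs in the cattle-yak and 24762829 UMIs in replicate 3. The member cells held 100243 UMIs in the cattle-yak, 220353 and 415810 UMIs at 6 months, 65704 and 18195 UMIs at 18 months and 9411 UMIs at 4 years. Levels are given as CPM, the usual per-million scaling of counts, over the summed UMIs of a class in a library. A gene not counted at all could still have had up to 29.9 CPM in the cattle-yak, 13.6 and 7.21 CPM at 6 months, 45.7 and 165 CPM at 18 months and 319 CPM at 4 years (3 counts of the total, counting error only). The 5 members of replicate 4 and the 3 of the 4-year library therefore said little about any but abundant genes. The median depth of a member was 2136.5 UMIs in the cattle-yak, 1719 and 2219 UMIs at 6 months, 1762 and 3464 UMIs at 18 months and 3165 UMIs at 4 years. Median mitochondrial shares of members were 13.0% in the cattle-yak, 6.22% and 5.99% at 6 months, 15.8% and 6.57% at 18 months and 11.6% at 4 years. Libraries shared 5 to 16 cell barcodes pairwise, and no 2 members shared one.

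RGS5-led cells were a small part of every library, and the shares counted at full depth were highest in both 6-month libraries. There were 30 members in the cattle-yak (0.786% of its cells kept, exact 95% interval 0.531% to 1.12%). At 6 months there were 106 (1.33%, 1.09% to 1.60%) and 171 (2.84%, 2.44% to 3.30%). At 18 months there were 36 (0.848%, 0.595% to 1.17%) and 5 (0.119%, 0.0386% to 0.277%), and at 4 years 3 (0.0625%, 0.0129% to 0.183%). Both 6-month shares lay above both 18-month shares, although the lower bound of replicate 1 lay below the upper bound of replicate 3. With 2 libraries at each of these ages, the smallest two-sided p of an exact permutation test is 0.333, so ages were not tested. With each cell thinned to 1000 UMIs the order changed in part. The thinned share was 1.08% in the cattle-yak (0.732% to 1.52%), 0.989% and 1.64% at 6 months, 0.446% and 0.211% at 18 months and 0.0853% at 4 years, so the cattle-yak then lay above 6-month replicate 1. These intervals cover counting error only.

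Both 6-month libraries also had the highest shares when RGS5-led cells were set against contractile mural cells, defined by at least 4 UMIs of ACTA2, TAGLN and MYH11 together, no fewer of these than of RGS5, and the same limit on the 5 excluded markers. RGS5-led cells made up 5.09% of both classes together in the cattle-yak, 49.5% and 50.4% at 6 months, 8.28% and 1.94% at 18 months and 1.30% at 4 years. Cells with at least 2 RGS5 UMIs were present in larger number throughout, at 277 in the cattle-yak, 175 and 314 at 6 months, 116 and 116 at 18 months and 73 at 4 years. Outside 6 months the contractile UMIs equalled or exceeded RGS5 in most such cells. That was so in 218 of 277 in the cattle-yak, in 50 of 175 and 127 of 314 at 6 months, in 59 of 116 and 85 of 116 at 18 months and in 45 of 73 at 4 years.

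**Figure D1:**
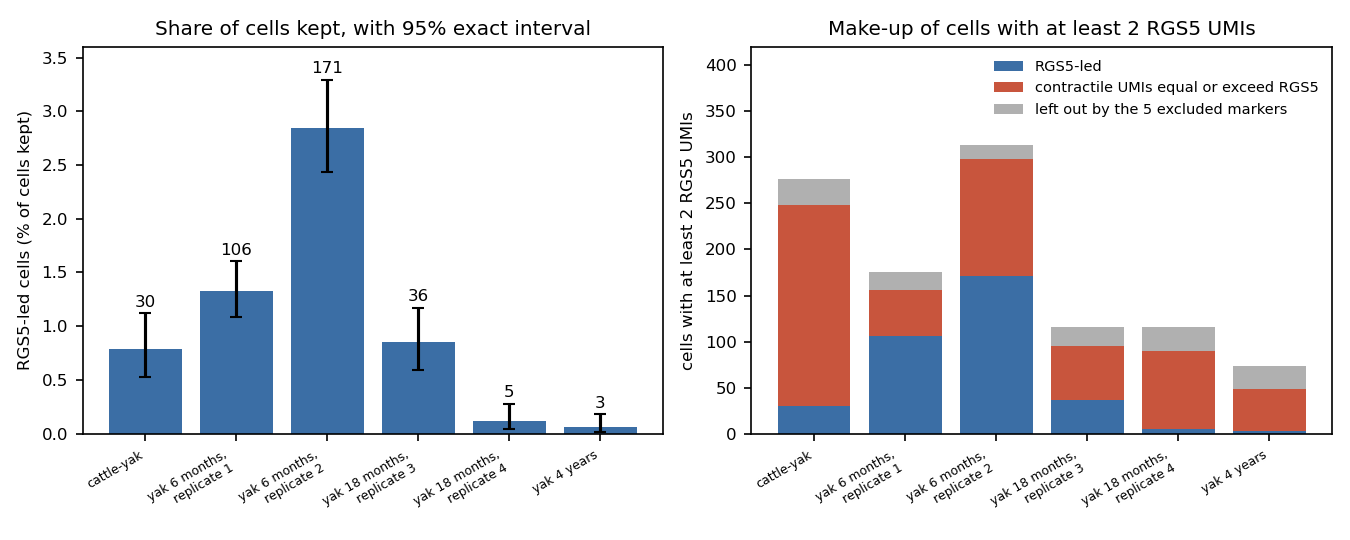
Left, RGS5-led cells as a percentage of cells kept in each library, with the exact 95% interval as the error bar and the number of members above each bar. Right, the number of cells with at least 2 RGS5 UMIs in each library, divided into RGS5-led cells, cells whose contractile UMIs equalled or exceeded RGS5, and cells left out by the 5 excluded markers. The 6-month libraries hold 106 and 171 members, and the 4-year library holds 3.

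Many members sat near the edge of the rule. Exactly 2 RGS5 UMIs were counted in 160 members, 187 had no contractile UMI, and in 74 RGS5 exceeded the contractile sum by 1. Just outside, 44 cells had RGS5 equal to the contractile sum, and 659 cells had 1 RGS5 UMI with no contractile UMI. The median number of RGS5 UMIs in a member was 5 in the cattle-yak, 3 and 3 at 6 months, 2 and 4 at 18 months and 3 at 4 years. A Scrublet rank typical of doublets (barcodes that hold more than 1 cell) was found for 21 of the 351 members, which were kept.

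The name pericyte was supported by part of its markers only. Of 26 pericyte markers, 23 were in the files, 16 were counted in at least 1 member and 7 were at 0 (ANPEP, VTN, EBF2, FOXF2, FOXC1, ENPEP and PLXDC1). The names COX4I2, CD248 and FOXS1 were not matched. HIGD1B, a mitochondrial protein gene that marks pericytes in mouse and human atlases, had at least 1 UMI in 117 of 351 members (33.3%). It had one in 619 of 1714 contractile cells (36.1%), 111 of 2497 stroma cells (4.45%) and 36 of 1582 lymphocytes (2.28%). Lymphocytes should lack the gene. Their gate set no limit on RGS5 or contractile UMIs, so their share can hold doublets as well as free RNA. In the cattle-yak HIGD1B had 94.7 CPM in lymphocytes and 32.3 CPM in stroma cells. After each cell was thinned to 1000 UMIs these shares were 26.2% of members, 27.2% of contractile cells, 2.35% of stroma cells and 1.24% of lymphocytes. These pooled shares hide a wide spread between libraries. HIGD1B was found in 26 of 30 members of the cattle-yak (86.7%), in 41 of 106 (38.7%) and 43 of 171 (25.1%) at 6 months, in 2 of 36 and 3 of 5 at 18 months and in 2 of 3 at 4 years. In contractile cells the shares were 43.6% in the cattle-yak, 46.3% and 63.7% at 6 months, 16.8% and 34.4% at 18 months and 28.2% at 4 years. Members were above contractile cells in the cattle-yak and below them in both 6-month libraries and replicate 3.

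PDGFRB (ENSBGRG00000020782), the receptor for PDGFB, was more widespread. At least 1 UMI was counted in 206 of 351 members (58.7%), 523 of 1714 contractile cells (30.5%), 963 of 2497 stroma cells (38.6%) and 60 of 1582 lymphocytes (3.79%). Thinned to 1000 UMIs, the shares were 35.2% of members, 15.6% of contractile cells, 24.5% of stroma cells and 1.30% of lymphocytes. DCN, which encodes the matrix proteoglycan decorin and marks stroma, was counted in 252 of 351 members (71.8%) and in 80 of 1582 lymphocytes (5.06%). Of 10 stroma markers 9 were in the files. Their summed level in members was 1476 CPM in the cattle-yak, 1915 and 1878 CPM at 6 months, 2085 and 934 CPM at 18 months and 850 CPM at 4 years. In stroma cells the same sum was 7002 CPM in the cattle-yak, 3314 and 3162 CPM at 6 months, 4812 and 3158 CPM at 18 months and 4555 CPM at 4 years. Contractile cells, defined above, had 1608 CPM in the cattle-yak, 1660 and 1566 CPM at 6 months, 1235 and 739 CPM at 18 months and 1030 CPM at 4 years. A stroma sum of this order was thus not particular to the members. The list holds DCN and PDGFRA, whose UMIs chose the stroma cells, so the higher sum of that class follows in part from its gate. Since most members carried DCN and most outside the cattle-yak lacked HIGD1B, they are called RGS5-led cells below.

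Markers of other cell types differed by library. The summed endothelial list in members was 1247 CPM in the cattle-yak, 241 and 21.6 CPM at 6 months, 15.2 and 1869 CPM at 18 months and 2444 CPM at 4 years. In endothelial cells it was 3226 CPM in the cattle-yak, 3420 and 3466 CPM at 6 months, 4446 and 4726 CPM at 18 months and 3606 CPM at 4 years. The list holds PECAM1 and CDH5, which chose the endothelial cells (at least 2 UMIs together) and are limited in members. This gap therefore follows in part from the gates. Most of the endothelial sum in members came from CA4 and EMCN, capillary endothelial genes that are outside the rule. A UMI of either was found in 31 members, 16 of 30 in the cattle-yak, 8 of 106 and 2 of 171 at 6 months, 1 of 36 and 2 of 5 at 18 months and 2 of 3 at 4 years. In the cattle-yak the 3 deepest members held 39.6% of all member UMIs, and with them 29 of 42 EMCN UMIs and 45 of 53 CA4 UMIs. Each comparison with another class was repeated without such cells. Of 12 lymphocyte markers 8 were in the files, and their sum in members stayed between 0 and 389 CPM. ALAS2, the 1 red blood cell gene of 5 that was in the files, was at 0. The macrophage sum was between 0 and 15.2 CPM, that of Leydig markers between 0 and 13.6 CPM, of Schwann markers between 0 and 76.1 CPM and of germ cell markers between 0 and 244 CPM. Only 2 of 6 Leydig markers were in the files, so that sum says little about Leydig cells. The rule limits CD3D and PTPRC of the lymphocyte list and UCHL1 of the germ cell list, so these sums are low in part by construction. The Sertoli sum, mostly CST3 and INHA, was between 744 and 3824 CPM in members and between 752 and 4860 CPM in lymphocytes.

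**Figure D2:**
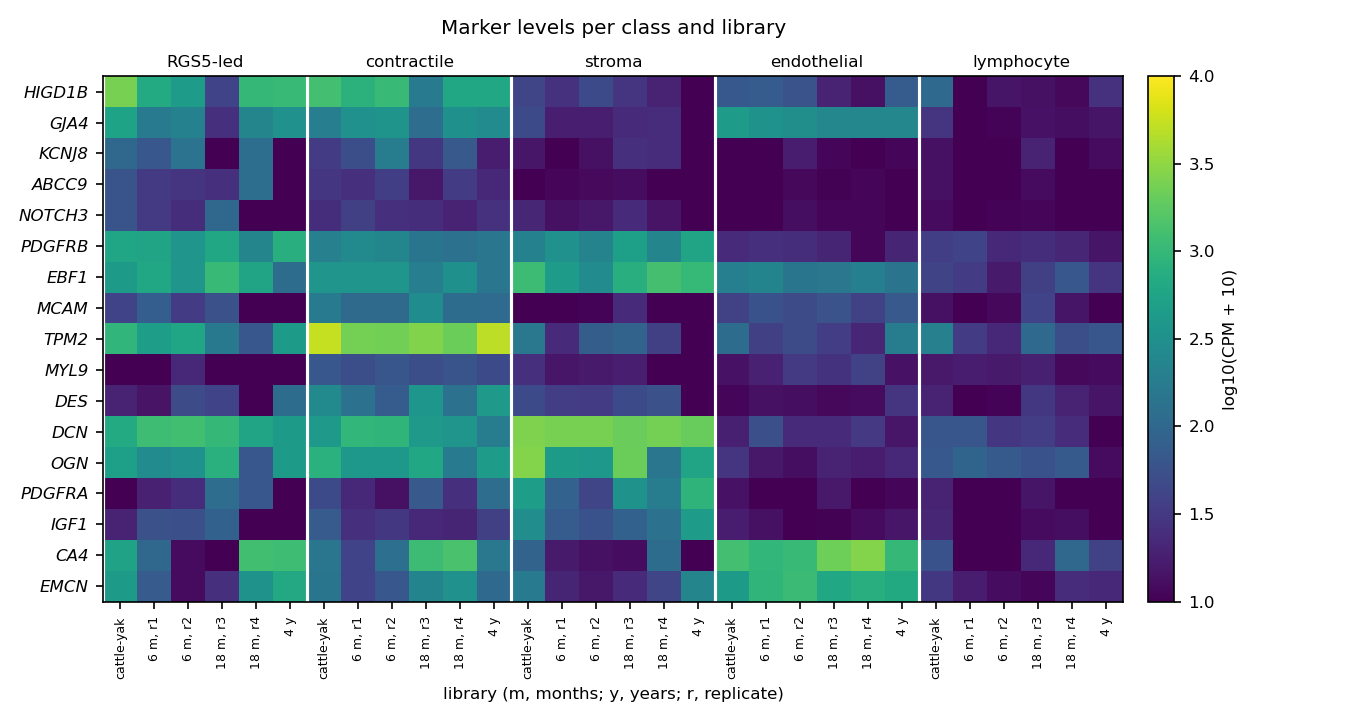
Levels of marker genes as log10 of CPM plus 10, from dark (not counted) to bright, with genes in rows and each of the 6 libraries in a column within the RGS5-led, contractile, stroma, endothelial and lymphocyte classes. The RGS5-led columns hold PDGFRB and DCN in every library, while HIGD1B is bright in the cattle-yak (2434 CPM) and dim in replicate 3 (30.4 CPM).

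Members with more RGS5 differed from those with less. RGS5 counts chose the members, so this is a description without a test. Over all libraries HIGD1B had 163 CPM in the 160 members with 2 RGS5 UMIs, 342 CPM in the 105 with 3 or 4 and 1680 CPM in the 86 with 5 or more. GJA4, which encodes the gap junction protein connexin 37, had 67.3, 85.6 and 490 CPM over the same classes. KCNJ8, a subunit of the ATP-sensitive potassium channel of vascular mural cells, had 16, 29.9 and 229 CPM. TPM2, the muscle tropomyosin beta chain, had 154, 244 and 1212 CPM. PDGFRB had 452, 407 and 504 CPM, and DCN had 1083, 1288 and 955 CPM. EBF1, a transcription factor of mural cells and stroma, had 506, 535 and 419 CPM. HIGD1B, GJA4, KCNJ8 and TPM2 were thus highest in the members with the most RGS5, while PDGFRB, DCN and EBF1 showed no such step. The median depth of these members was 1765.5, 2100 and 2887.5 UMIs in the same order. Under the rule contractile UMIs must stay below RGS5 UMIs, so members with more RGS5 may hold more of them. HIGD1B had 140 CPM in the 187 members with 0 contractile UMIs and 1228 CPM in the 164 with at least 1. In the same split TPM2 had 154 and 865 CPM, GJA4 60.9 and 347 CPM and KCNJ8 13.2 and 159 CPM. PDGFRB had 448 and 464 CPM. The part of the rule in these steps was not tested.

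The same step in HIGD1B was seen within both 6-month libraries. In replicate 1 it had 183 CPM with 2 RGS5 UMIs, 274 CPM with 3 or 4 and 1522 CPM with 5 or more. In replicate 2 it had 144 CPM, 191 CPM and 1278 CPM. In the cattle-yak it had 888 CPM, 3396 CPM and 2563 CPM, so its level was already high with 3 or 4. Replicate 3 had too few HIGD1B UMIs to show such a step: HIGD1B had 0 CPM, 52.7 CPM and 101 CPM, from 2 UMIs in all. HIGD1B was found there in 2 of 36 members, but in 37 of 59 cells in which RGS5 had at least 2 UMIs and contractile UMIs equalled or exceeded it (661 CPM). In the cells just outside the rule with 1 RGS5 UMI and no contractile UMI, HIGD1B had 189 CPM in the cattle-yak, 31.1 and 52.5 CPM at 6 months and 0 CPM in replicate 3. The RGS5-led cells of replicate 3 therefore lacked HIGD1B in a library whose contractile cells with RGS5 had it. Their median mitochondrial share, 15.8%, was the highest of the 6 libraries, and its part in the difference was not tested.

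**Figure D3:**
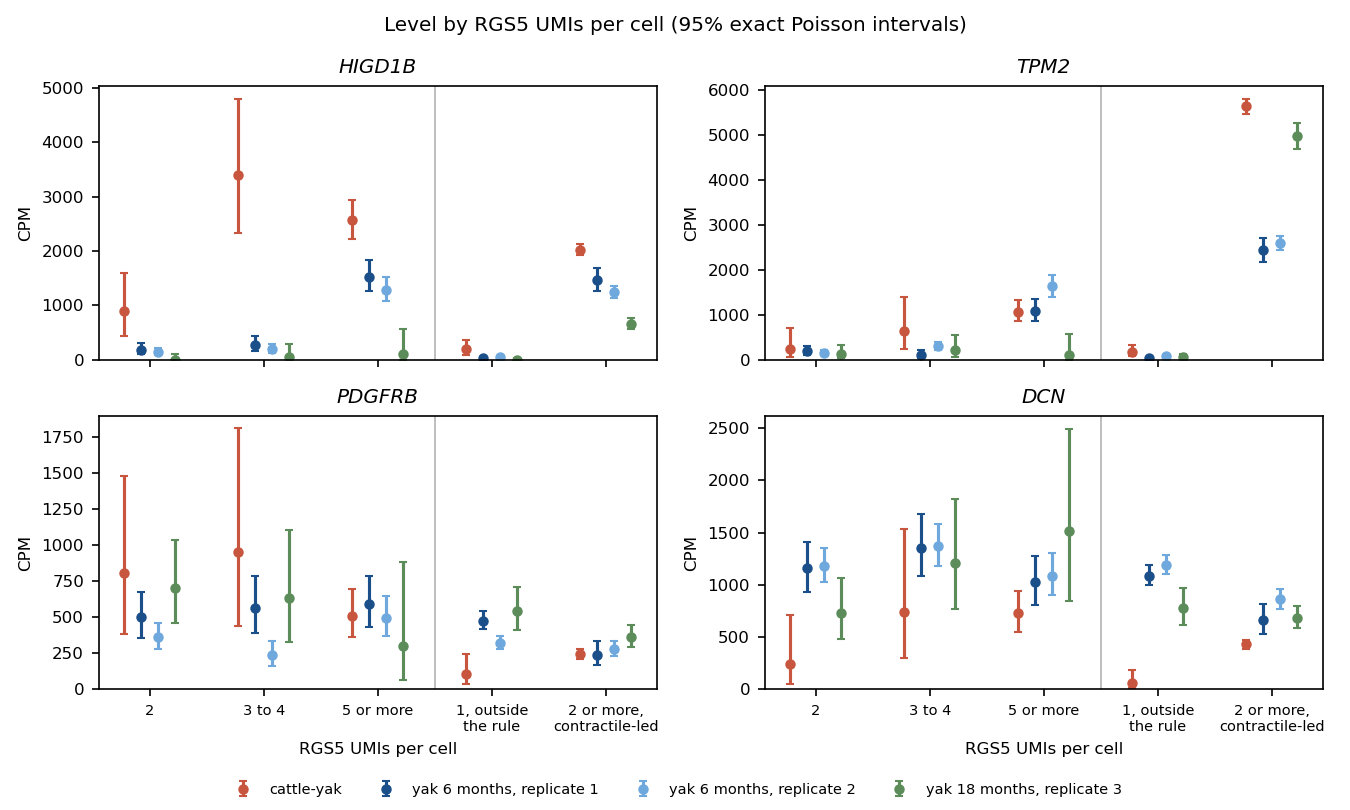
Levels in CPM of HIGD1B, TPM2, PDGFRB and DCN in the 4 libraries with at least 20 members, by the number of RGS5 UMIs per cell. Points are summed cells of a library with exact 95% Poisson intervals, members stand left of the vertical line, and cells outside the rule stand right of it. HIGD1B at 6 months is at 1522 and 1278 CPM in members with 5 or more RGS5 UMIs and at 183 and 144 CPM in members with 2, while PDGFRB and DCN show no such step.

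RGS5-led cells were then set against the contractile mural cells of the same libraries. UMIs were summed per library and class and tested with edgeR's quasi-likelihood test, with library as a block, TMM scaling and Benjamini-Hochberg adjustment over all genes tested. Of 5062 genes, 177 passed an adjusted p of 0.05 (3.50%). Of these 25 were higher in RGS5-led cells (0.494%) and 152 lower (3.00%). The median log2 fold change of all genes was -0.12. With library totals in place of TMM the median was 0.08, and 68 genes were higher and 104 lower. The classes were cut apart on contractile UMIs, so lower contractile genes in RGS5-led cells follow in part from the rule. The 9 genes of the rule were not tested. Contractile cells with TAGLN but no ACTA2 or MYH11 UMI numbered 106 of 559 in the cattle-yak and 45 of 108 and 63 of 168 at 6 months. They numbered 180 of 399 and 109 of 253 at 18 months and 41 of 227 at 4 years. Contractile cells with a CA4 or EMCN UMI made up 25.2% in the cattle-yak, 4.63% and 4.17% at 6 months, 43.1% and 39.9% at 18 months and 16.7% at 4 years.

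PDGFRB was higher in RGS5-led cells than in contractile cells. It had 589 CPM in RGS5-led cells of the cattle-yak, 549 and 354 CPM at 6 months, 624 and 220 CPM at 18 months and 744 CPM at 4 years. Contractile cells had 191 CPM in the cattle-yak, 263 and 229 CPM at 6 months, 137 and 122 CPM at 18 months and 141 CPM at 4 years. RGS5-led cells were above contractile cells in all 6 libraries, with a log2 fold change of 1.15 ± 0.27 (SE, adjusted p = 0.0015, edgeR). The call was lost without 6-month replicate 1 (1.07, adjusted p = 0.117) and without the cattle-yak (1.03, adjusted p = 0.0578). It was also lost in 4 other settings, with a highest adjusted p of 0.122 over all of them. These were without cells carrying CA4 or EMCN, with no UMI of the 5 excluded markers, without a filter on low counts and without the library block.

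STMN2, which encodes the microtubule-binding protein stathmin 2, was the named gene with the largest excess. RGS5-led cells had 628 CPM in the cattle-yak, 427 and 481 CPM at 6 months, 2222 and 1264 CPM at 18 months and 213 CPM at 4 years. Contractile cells had 277 CPM in the cattle-yak, 107 and 146 CPM at 6 months, 238 and 127 CPM at 18 months and 86.4 CPM at 4 years. The log2 fold change was 1.92 ± 0.27 (adjusted p = 1.03e-09, edgeR), higher in 6 of 6 libraries and past the threshold in every alternative run. Stroma had levels of the same order as RGS5-led cells, at 307 CPM in the cattle-yak, 593 and 630 CPM at 6 months, 1212 and 1167 CPM at 18 months and 0 CPM at 4 years. At 6 months members with 5 or more RGS5 UMIs had less STMN2 (236 and 85.2 CPM) than members with 2 (585 and 637 CPM).

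Other genes above contractile cells in 6 of 6 libraries were NID1 (nidogen 1 of basement membranes, 1.69 ± 0.44), SLF2 (a genome maintenance factor, 1.28 ± 0.34), RALGPS2 (1.09 ± 0.33) and COL6A1 (a collagen VI chain, 1.04 ± 0.32). Their adjusted p-values by edgeR were 0.00748, 0.00944, 0.0294 and 0.0403 in that order. They were less firm: RALGPS2 lost its call without 6-month replicate 1, replicate 2 or 18-month replicate 3 (adjusted p = 0.25, 0.141 and 0.232), and SLF2 without replicate 1 or 3 (adjusted p = 0.121 and 0.217). NID1 lost it without replicate 3 (adjusted p = 0.275), and COL6A1 without any library but that of 4 years (adjusted p between 0.0629 and 0.274). Of the 25 genes higher than in contractile cells, 9 had a higher mean level in stroma than in RGS5-led cells. The same count over all genes tested was not made, so the 9 are given as a description.

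Among secreted signals and receptors, INHBA, which encodes the beta A subunit of activin A and inhibin A, had 0 CPM in RGS5-led cells of the cattle-yak, 458 and 327 CPM at 6 months, 1126 and 275 CPM at 18 months and 0 CPM at 4 years. Contractile cells had 36.3 CPM in the cattle-yak, 152 and 121 CPM at 6 months, 114 and 62.2 CPM at 18 months and 47.4 CPM at 4 years. RGS5-led cells were thus above in the 4 libraries of 6 and 18 months only, with a fitted log2 fold change of 1.49 ± 0.31 (adjusted p = 0.000167, edgeR). Without 6-month replicate 1 the change was 1.25 (adjusted p = 0.121, edgeR). The call was also lost with DESeq2, with at least 3 RGS5 UMIs, in the libraries with at least 20 members and without the library block. Stroma cells had 573 and 425 CPM of INHBA at 6 months and 625 and 531 CPM at 18 months. Of these libraries only replicate 3 had more in RGS5-led cells than in stroma, so the excess was not particular to RGS5-led cells. VIPR2, a receptor for vasoactive intestinal peptide, had 49.9 CPM in RGS5-led cells of the cattle-yak, 159 and 200 CPM at 6 months, 487 and 220 CPM at 18 months and 0 CPM at 4 years. In contractile cells it had 34.3 CPM in the cattle-yak, 76.1 and 66.2 CPM at 6 months, 59.6 and 30.4 CPM at 18 months and 42.3 CPM at 4 years. It was higher in 5 of 6 libraries, with a log2 fold change of 1.54 ± 0.32 (adjusted p = 0.000156, edgeR). VIPR2 lost its call with at least 3 RGS5 UMIs and without the library block.

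Genes of the contractile apparatus were lower in RGS5-led cells. Of 22 contractile genes 14 were tested outside the rule; 10 were lower, 0 higher and 4 did not pass, with a median log2 fold change of -1.49 against -0.12 over all genes. TPM2 had 928 CPM in RGS5-led cells of the cattle-yak, 472 and 570 CPM at 6 months, 152 and 55 CPM at 18 months and 425 CPM at 4 years. Contractile cells had 5489 CPM in the cattle-yak, 2345 and 2307 CPM at 6 months, 2675 and 2084 CPM at 18 months and 5013 CPM at 4 years. The groups did not overlap, and the log2 fold change was -3.12 ± 0.25 (adjusted p = 8.19e-31, edgeR). ACTG2, the gamma actin of smooth muscle, fell by 4.38 ± 0.42 on the log2 scale, and DES, which encodes the intermediate filament desmin, fell by 2.78 ± 0.38 (adjusted p = 9.94e-23 and 2.07e-10, edgeR). CNN1, which encodes calponin 1, was not counted in any member, where 25.9 UMIs would have been expected from the contractile cells of the same libraries, so it was at least 8.64-fold lower (3 counts over all members as the floor). MYL9, LMOD1, MYLK, FLNA, ACTN1 and KCNMB1 were the other 6 below. Of these FLNA lost its call without any 1 of 5 libraries, LMOD1 without 18-month replicate 3 or the cattle-yak, and MYLK without replicate 1 or 3.

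Genes outside that list were lower too. S100A4, a calcium-binding protein gene, had 130 CPM in RGS5-led cells of the cattle-yak, 0 and 2.40 CPM at 6 months, 15.2 and 0 CPM at 18 months and 0 CPM at 4 years. In contractile cells it had 950 CPM in the cattle-yak, 381 and 66.2 CPM at 6 months, 916 and 705 CPM at 18 months and 1273 CPM at 4 years. The log2 fold change was -4.76 ± 0.40 (adjusted p = 5.19e-30, edgeR). DSTN, the actin-depolymerising factor destrin, fell by 2.73 ± 0.30, RCAN2, a regulator of calcineurin, by 2.81 ± 0.39, and PARM1 by 3.61 ± 0.57 on the log2 scale, each in 6 of 6 libraries. CAVIN3, a caveola coat protein gene, fell by 2.61 ± 0.53 in 6 of 6 libraries. NDRG4 was not counted in members where 23.7 UMIs would have been expected, at least 7.90-fold lower. RERGL had 2 UMIs where 38.9 would have been expected, a ratio of 0.0514 (counting interval 0.00622 to 0.186). SMOC2 had 2 where 16.5 would have been expected, a ratio of 0.121 (0.0147 to 0.439).

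The pericyte markers did not set RGS5-led cells apart from contractile cells. Of 10 tested outside the rule, PDGFRB was higher, MCAM (an adhesion molecule of mural cells and endothelium) was lower and 8 did not pass, with a median of 0.05 against -0.12 over all genes. MCAM fell by 1.96 ± 0.37 on the log2 scale (adjusted p = 1.52e-05, edgeR). HIGD1B had 2434 CPM in RGS5-led cells of the cattle-yak, 672 and 447 CPM at 6 months, 30.4 and 989 CPM at 18 months and 1063 CPM at 4 years. Contractile cells had 1262 CPM in the cattle-yak, 841 and 1042 CPM at 6 months, 164 and 598 CPM at 18 months and 606 CPM at 4 years. Its log2 fold change was -0.41 ± 0.26 (adjusted p = 0.473, edgeR), and RGS5-led cells were below contractile cells in both 6-month libraries and replicate 3 and above in the other 3. GJA4 had a change of -0.53 ± 0.29 (adjusted p = 0.384), and without the cattle-yak it was lower in RGS5-led cells (-1.17, adjusted p = 0.0429, edgeR). KCNJ8 had 0.14 ± 0.38 and EBF1 0.55, and neither passed (adjusted p = 0.911 and 0.313, edgeR).

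Of 15 basement membrane genes tested, NID1 and LAMA2 (a laminin alpha chain) were higher and 13 did not pass. Of 18 fibrillar and interstitial matrix genes COL6A1 was higher, MFAP4 and TIMP1 lower and 15 did not pass. In the TGF-beta, activin and BMP list INHBA was higher and ID4, CCN1 and CCN2 lower of 14 tested. Of 20 immediate early and stress genes ATF3, KLF2 and KLF6 were lower and 17 did not pass. Of 21 genes of vascular tone and G protein signalling KCNMB1 and PLCE1 were lower. None of the lists of Notch targets, Leydig progenitor genes, steroid synthesis, interferon response, antigen presentation, cell cycle, hypoxia and glycolysis, IGF and insulin, or chemokines held a gene that passed. Of 7 stroma markers C7 was higher and MFAP4 lower, and no gene passed among 6 endothelial and 4 Sertoli markers tested. Several of these calls rested on single libraries. C7 lost its call without 6-month replicate 1 or the cattle-yak, with a highest adjusted p of 0.372 over 5 settings (edgeR). LAMA2, CCN1, TIMP1, KLF6 and PLCE1 were each lost without 6-month replicate 1, among others. LAMA2 then had an adjusted p of 0.218 by edgeR, CCN1 0.2, TIMP1 0.066, KLF6 0.0646 and PLCE1 0.0873.

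**Figure D4:**
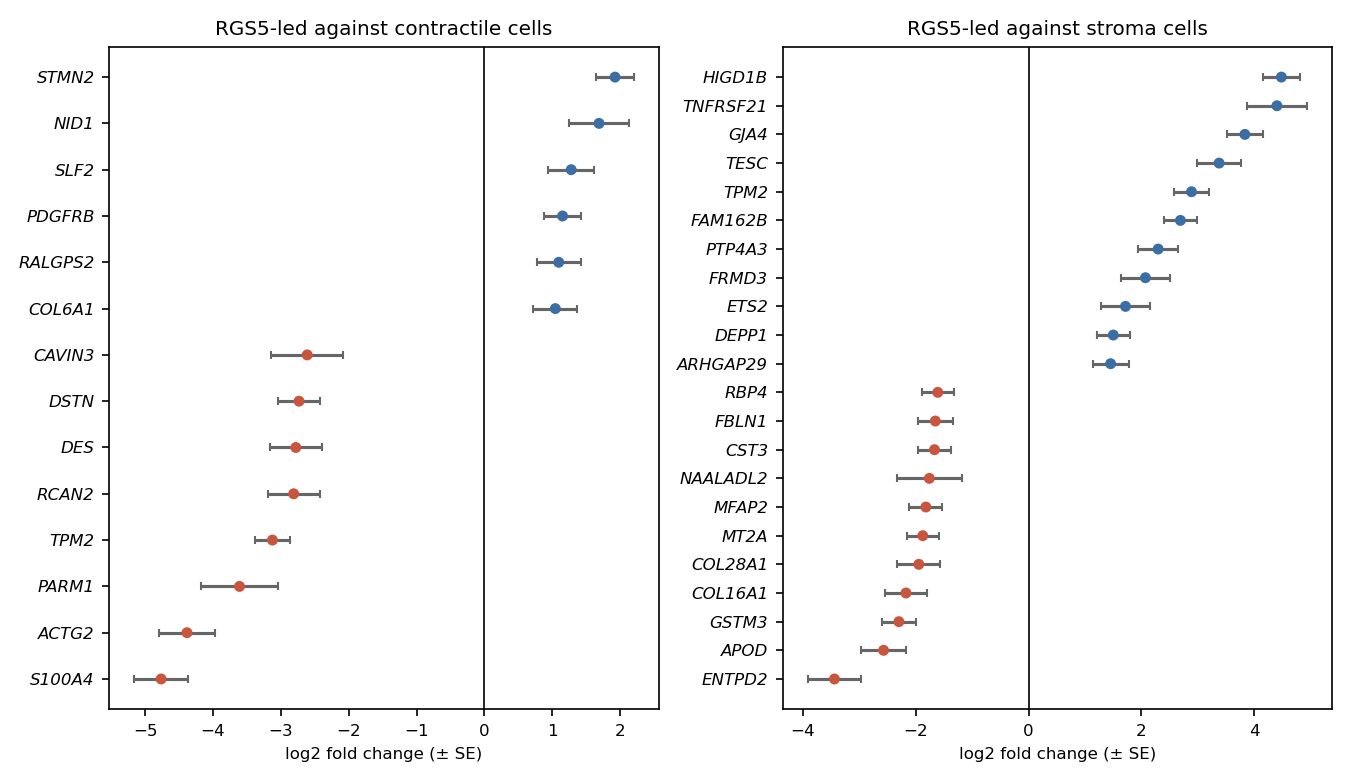
Log2 fold changes with SE from edgeR of most genes named by rule, for RGS5-led against contractile cells (left) and against stroma cells (right), each over 6 libraries. A point right of 0 is higher in RGS5-led cells, and genes with 0 to 2 UMIs in all members are not drawn. TPM2 stands at -3.12 against contractile cells and at 2.89 against stroma cells.

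RGS5-led cells were also set against stroma cells, defined by at least 3 UMIs of DCN and PDGFRA together and at most 1 UMI each of RGS5, of the contractile sum and of the 5 excluded markers. DCN and PDGFRA were therefore not tested there, and the contractile and RGS5 gates set that class apart by construction. Of 3817 genes 222 passed (5.82%), 85 higher in RGS5-led cells (2.23%) and 137 lower (3.59%), with a median log2 fold change of -0.17 over all genes. With library totals the median was 0.04, and 113 genes were higher and 88 lower. Both comparisons share the sums of the RGS5-led cells.

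Genes of pericytes were higher in RGS5-led cells than in stroma. HIGD1B had 32.3 CPM in stroma cells of the cattle-yak, 16.5 and 36.9 CPM at 6 months, 18.8 and 9.15 CPM at 18 months and 0 CPM at 4 years, below RGS5-led cells in every library. The log2 fold change was 4.48 ± 0.33 (adjusted p = 1.01e-20, edgeR). In replicate 3 the gap was small, at 30.4 CPM in RGS5-led cells against 18.8 CPM in stroma cells. GJA4 had 539 CPM in RGS5-led cells of the cattle-yak, 159 and 200 CPM at 6 months, 15.2 and 220 CPM at 18 months and 319 CPM at 4 years. In stroma cells it had 37.7 CPM in the cattle-yak, 8.05 and 7.86 CPM at 6 months, 13.4 and 13.7 CPM at 18 months and 0 CPM at 4 years. The log2 fold change was 3.83 ± 0.32 (adjusted p = 4.72e-18, edgeR). Endothelial cells, which also use connexin 37, had 429 CPM in the cattle-yak and 233 to 334 CPM in the yak libraries.

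The potassium channel of mural cells followed. KCNJ8 had 89.8 CPM in RGS5-led cells of the cattle-yak, 54.5 and 130 CPM at 6 months, 0 and 110 CPM at 18 months and 0 CPM at 4 years. In stroma cells it lay between 0 and 16.1 CPM, with replicate 3 (16.1 CPM) above the RGS5-led cells of the same library. Its log2 fold change was 4.02 ± 0.55, and that of ABCC9, which encodes the regulatory subunit of the same channel, was 3.71 ± 0.79 (adjusted p = 8.85e-09 and 0.000432, edgeR). NOTCH3, a receptor of mural cells, was higher by 1.93 ± 0.62 (adjusted p = 0.0437, edgeR). In all 5 of the 7 pericyte markers tested were higher (HIGD1B, GJA4, KCNJ8, ABCC9 and NOTCH3), with a median of 3.71 against -0.17 over all genes. PDGFRB, at 199 CPM in stroma of the cattle-yak, 317 and 210 CPM at 6 months, 477 and 220 CPM at 18 months and 555 CPM at 4 years, did not pass (0.52 ± 0.24, adjusted p = 0.284, edgeR). That outcome turned with the scaling: with library totals in place of TMM it was 0.75 (adjusted p = 0.0257), and without cells carrying CA4 or EMCN 0.75 (adjusted p = 0.0266), both higher in RGS5-led cells. EBF1 did not pass either and was lower in RGS5-led cells than in stroma in 3 of 6 libraries.

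FAM162B had 788 CPM in RGS5-led cells of the cattle-yak, 399 and 250 CPM at 6 months, 107 and 220 CPM at 18 months and 638 CPM at 4 years. Stroma cells had 70.0 CPM in the cattle-yak, 38.6 and 17.5 CPM at 6 months, 72.4 and 87.0 CPM at 18 months and 0 CPM at 4 years. The log2 fold change was 2.69 ± 0.29 (adjusted p = 1.19e-12, edgeR). Also higher in 6 of 6 libraries were TNFRSF21, a death receptor gene (4.40 ± 0.53), TESC, a calcium-binding protein gene (3.38 ± 0.39), PTP4A3, a phosphatase gene (2.30 ± 0.36), and FRMD3 (2.07 ± 0.44). ETS2, an ETS transcription factor gene, was higher by 1.72 ± 0.44, DEPP1 by 1.5 ± 0.30 and ARHGAP29 by 1.45 ± 0.32. ETS2 lost its call without 6-month replicate 1 (adjusted p = 0.061) or the cattle-yak (0.0594), and DEPP1 without replicate 1 (0.0527). ASPN, which encodes the matrix protein asporin, had 798 CPM in RGS5-led cells of the cattle-yak, 159 and 171 CPM at 6 months, 0 and 220 CPM at 18 months and 531 CPM at 4 years. In stroma cells it was at 113 CPM in the cattle-yak, 0.402 and 1.81 CPM at 6 months, 2.68 and 0 CPM at 18 months and 111 CPM at 4 years. It passed with 4.56 ± 0.39 (adjusted p = 7.41e-18, edgeR), higher in 5 of 6 libraries.

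TPM2 lay between the classes, whose gates also order them by contractile UMIs. It was higher in RGS5-led cells than in stroma by 2.89 ± 0.31 on the log2 scale (adjusted p = 2.29e-12, edgeR), with 151 CPM in stroma of the cattle-yak, 12.5 and 66.5 CPM at 6 months, 80.5 and 27.5 CPM at 18 months and 0 CPM at 4 years. In all 14 genes were higher than in stroma and lower than in contractile cells, among them TPM2, TESC, PTP4A3 and NTF3, which encodes neurotrophin 3. Another 13 genes were lower than in both classes and 4 were higher than in contractile cells and lower than in stroma, with LAMA2, NRK and CPXM1 among these 4. Only 1 gene, known by its identifier ENSBGRG00000007555, was higher than in both. These overlaps come from 5062 genes tested against contractile cells and 3817 against stroma. The number of genes tested in both was not counted, so no share is given. Of the 85 genes higher than in stroma, 38 had a higher mean level in contractile cells and 36 in endothelial cells than in RGS5-led cells. These counts too were not made over all genes tested and are given as a description.

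Genes of vascular tone were divided. Of 17 tested, GUCY1A1 and GUCY1B1 (subunits of soluble guanylate cyclase, the receptor of nitric oxide), ADORA2A (an adenosine receptor), KCNJ8 and ABCC9 were higher in RGS5-led cells, PDE5A (which degrades cyclic GMP) and EDNRA (an endothelin receptor) were lower, and 10 did not pass. GUCY1B1 had a log2 fold change of 2.07 ± 0.35 (adjusted p = 2.71e-06, edgeR) and was higher in 4 of 6 libraries, with no UMI in the few members of replicate 4 and the 4-year library. PDE5A fell by 1.14 ± 0.26 (adjusted p = 0.00137, edgeR) in 6 of 6 libraries. Its call was lost with DESeq2, without cells carrying CA4 or EMCN, without the library block and in the libraries with at least 20 members. GUCY1A1 and EDNRA were called by a narrow margin (adjusted p = 0.0311 and 0.0252, edgeR) and each lost the call without any 1 of several libraries, with an adjusted p of up to 0.151 for GUCY1A1 and 0.375 for EDNRA.

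Several interstitial matrix genes were lower in RGS5-led cells than in stroma, but not the list as a sum in every library. Of 16 fibrillar and interstitial matrix genes tested, COL1A2, COL3A1, OGN, FBLN1, FBLN2, FBN1 and MFAP4 were lower, POSTN higher and 8 did not pass, with a median of -0.74 against -0.17 over all genes. Summed over the 20 list genes in the files, DCN of the stroma gate among them, RGS5-led cells had 4709 CPM in the cattle-yak, 7243 and 11000 CPM at 6 months, 9299 and 7639 CPM at 18 months and 3294 CPM at 4 years. Stroma cells had 13863 CPM in the cattle-yak, 7241 and 9409 CPM at 6 months, 11671 and 10656 CPM at 18 months and 11886 CPM at 4 years. The sum in RGS5-led cells was thus lower in 4 libraries and equal or higher in both 6-month libraries. OGN, the proteoglycan osteoglycin, had 489 CPM in RGS5-led cells of the cattle-yak, 268 and 315 CPM at 6 months, 791 and 55 CPM at 18 months and 425 CPM at 4 years. Stroma cells had 2768 CPM in the cattle-yak, 427 and 383 CPM at 6 months, 2087 and 142 CPM at 18 months and 555 CPM at 4 years. It fell by 1.35 ± 0.28 on the log2 scale (adjusted p = 0.000295, edgeR), lower in 6 of 6 libraries. COL1A2, a chain of collagen I, fell by 1.45 ± 0.29 and FBLN1, which encodes fibulin 1, by 1.65 ± 0.31 (adjusted p = 9.91e-05 and 3.96e-05, edgeR). Both lost their calls with DESeq2 in place of edgeR, without the library block and in the libraries with at least 20 members. OGN lost its call with DESeq2 and without the block. COL3A1, FBN1 and MFAP4 lost their calls without the cattle-yak, where the change was -0.65 for COL3A1, -0.40 for FBN1 and -0.53 for MFAP4 (adjusted p = 0.0925, 0.599 and 0.558), and without some other libraries. FBLN2 lost it without the cattle-yak too (-1.76, adjusted p = 0.274).

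Of 14 basement membrane genes, SPARCL1 (a matricellular protein gene) and COL4A2 (a collagen IV chain) were higher and COL4A3, COL15A1, LAMA2 and LAMC3 lower. SPARCL1 had 2803 CPM in RGS5-led cells of the cattle-yak, 2723 and 2701 CPM at 6 months, 1750 and 2528 CPM at 18 months and 2656 CPM at 4 years. In stroma it had 625 CPM in the cattle-yak, 1140 and 1482 CPM at 6 months, 872 and 833 CPM at 18 months and 1555 CPM at 4 years. The ranges did not overlap, and the log2 fold change was 1.02 ± 0.24 (adjusted p = 0.0018, edgeR). In the IGF list IGFBP7 was higher (0.77 ± 0.25, adjusted p = 0.0478, edgeR) and IGF1, IGFBP3 and IGFBP6 lower, with 3 not passing. Without the cattle-yak IGFBP7 had an adjusted p of 0.289 and IGF1 of 0.39 by edgeR. Without 18-month replicate 4 IGFBP6 had 0.0712, and without 6-month replicate 1 IGFBP3 had 0.118. COL4A2, COL4A3 and LAMA2 also lost their calls without single libraries, with adjusted p-values of up to 0.63 for COL4A2, 0.166 for COL4A3 and 0.187 for LAMA2. In the TGF-beta, activin and BMP list TGFBR3, BMP4 and ID2 were lower of 10 tested, in the stress list ATF3 and NR4A1 higher and KLF4 lower of 20, and in the hypoxia list HIGD1B and EPAS1 higher of 8. No gene passed in the lists of Notch targets, steroid synthesis, chemokines, interferon response, antigen presentation or cell cycle. Without 6-month replicate 1 ID2 had an adjusted p of 0.573, NR4A1 of 0.107 and EPAS1 of 0.106 by edgeR.

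Among the named genes outside the lists, SMOC2, ENTPD2 and APOD were furthest below stroma. SMOC2 had 2 UMIs in all members where 60.1 would have been expected, a ratio of 0.0333 (counting interval 0.00403 to 0.120). ENTPD2, an ectonucleotidase gene, fell by 3.44 ± 0.47 and APOD, the lipid carrier apolipoprotein D, by 2.57 ± 0.40 on the log2 scale (adjusted p = 1.41e-08 and 6.88e-07, edgeR). GSTM3, a glutathione transferase gene, fell by 2.30 ± 0.30, COL16A1 by 2.17 ± 0.36, COL28A1 by 1.94 ± 0.38, MT2A (a metallothionein gene) by 1.87 ± 0.28 and MFAP2 by 1.82 ± 0.29, each lower in 6 of 6 libraries. So were CST3, the secreted protease inhibitor cystatin C, which fell by 1.67 ± 0.29, and RBP4, which fell by 1.61 ± 0.28. In the libraries with at least 20 members APOD, COL28A1 and CST3 lost their calls, and with DESeq2 APOD and COL28A1 did. NAALADL2 fell by 1.76 ± 0.57 and lost its call without 18-month replicate 4, the 4-year library or the cattle-yak (adjusted p = 0.154, 0.131 and 0.163, edgeR). Some lists of cell identity held called genes: LHX9, PTCH1 and IGF1 were lower of 6 Leydig progenitor genes tested, INHA and CST3 lower of 4 Sertoli markers, and CA4 and EMCN higher of 4 endothelial markers. CA4 was higher in 4 of 6 libraries, at 529 CPM in RGS5-led cells of the cattle-yak, 90.8 and 2.40 CPM at 6 months, 0 and 1209 CPM at 18 months and 1169 CPM at 4 years. Without single libraries INHA had an adjusted p of up to 0.378, EMCN of 0.157, PTCH1 of 0.0568 and LHX9 of 0.0558 by edgeR.

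With all cells carrying CA4 or EMCN left out of the compared classes, 164 genes passed against contractile cells, of which 125 had also passed with them, and 153 passed against stroma, of which 128 had also passed with them. In the 4 libraries with at least 20 members 74 genes passed against contractile cells (11 higher and 63 lower) and 95 against stroma (63 higher and 32 lower).

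PDGFB and ANGPT1 were counted at low levels. PDGFB had 49.0 CPM in endothelial cells of the cattle-yak, 23.6 and 13.5 CPM at 6 months, 56.9 and 28.8 CPM at 18 months and 57.0 CPM at 4 years. In RGS5-led cells it had 39.9 CPM in the cattle-yak, 9.08 CPM in replicate 1 and 0 CPM elsewhere. ANGPT1, the ligand by which mural cells act on the endothelial receptor TEK, had 20.0 CPM in RGS5-led cells of the cattle-yak, 4.54 and 12 CPM at 6 months and 0 CPM at 18 months and 4 years. In RGS5-led cells these values rest on 0 to 5 UMIs per library, while the PDGFB values of endothelial cells rest on 36 UMIs in the cattle-yak, 13 and 9 at 6 months, 117 and 24 at 18 months and 43 at 4 years. Of 16 pericyte-endothelial ligands and receptors tested against contractile cells, PDGFRB was higher and 15 did not pass. Of 13 tested against stroma, NOTCH3, CXCR4 and ITGA1 were higher and EDNRA lower. Without 6-month replicate 1 CXCR4 had an adjusted p of 0.608 and ITGA1 of 0.0686 by edgeR.

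Age was not tested within the RGS5-led cells alone, because a minimum of 20 members per library was set for that test and replicate 4 held 5. Values of the libraries with at least 20 members are therefore given without a test, and a gene was called changed where its CPM, with 10 CPM added, differed at least 4-fold from the nearer library and at least 20 UMIs had been counted. Between replicate 3 at 18 months and both 6-month libraries 3010 genes had enough UMIs. Of these 41 were higher at 18 months (1.36%) and 105 lower (3.49%). Of the 105 lower genes 83 were not counted in replicate 3, and only 3 of those 83 were at least 4-fold lower when replicate 3 was set to the 3-count limit.

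The RGS5-led cells of replicate 3 had more of several stroma and cytoskeleton genes. APOD had 335 CPM in replicate 3 (exact 95% Poisson interval 210 to 507), against 36.3 and 31.3 CPM at 6 months. COL15A1, a basement membrane zone collagen gene, had 365 CPM in replicate 3 (234 to 544), against 49.9 and 43.3 CPM at 6 months. SYNM, which encodes the intermediate filament synemin, had 213 CPM in replicate 3, against 22.7 and 19.2 CPM at 6 months. In stroma cells COL15A1 differed in the same direction, at 475 CPM in replicate 3 against 101 and 116 CPM at 6 months. HIGD1B, ASPN, NTF3 and BZW2 were lower. HIGD1B had 30.4 CPM in replicate 3 (3.69 to 110), against 672 and 447 CPM at 6 months, while replicate 4 of the same age had 989 CPM from 5 cells. ASPN had 0 CPM in replicate 3, which allows up to 45.7 CPM, against 159 and 171 CPM at 6 months, so a 4-fold difference is not shown for it. The same holds for NTF3 (0 CPM against 104 and 108 CPM) and BZW2 (0 CPM against 141 and 156 CPM).

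Whether the difference between RGS5-led and contractile cells changed with age was tested over the libraries of 18 and 6 months. No minimum number of members was set for that test, so it includes the 5 members of replicate 4. Of 4263 genes 4 passed by edgeR's quasi-likelihood test, 1 with a higher difference at 18 months (0.0235%) and 3 with a lower one (0.0704%), and 332 had an unadjusted p below 0.05. DESeq2 called 0, with 69 at an unadjusted p below 0.05. TPM2 had the lowest adjusted p. It belongs to the contractile list, and the rule keeps the contractile UMIs of a member below its RGS5 UMIs. Members had a median of 2 and 4 RGS5 UMIs at 18 months (highest 7 and 10), against 3 and 3 at 6 months (highest 17 and 24). The part of the rule in the TPM2 result was not tested. In RGS5-led cells TPM2 had 152 and 55 CPM at 18 months against 472 and 570 CPM at 6 months. Contractile cells had 2675 and 2084 CPM at 18 months against 2345 and 2307 CPM at 6 months. The difference between the classes was lower at 18 months by a log2 value of -2.42 ± 0.49 (adjusted p = 0.00285, edgeR). It was -3.34 (adjusted p = 7.14e-06) without cells carrying CA4 or EMCN. Leaving out 6-month replicate 1, replicate 2 or 18-month replicate 3 gave -2.80, -2.42 and -3.79, with adjusted p-values of 0.104, 0.779 and 0.0589. Leaving out replicate 4 gave -2.24 (adjusted p = 0.000679), and 40 genes then passed.

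GNG11 (a G protein gamma subunit, -2.02 ± 0.47, adjusted p = 0.0281), TCAP (the muscle protein telethonin, 3.45 ± 0.82, adjusted p = 0.0313) and the gene ENSBGRG00000025660 (-1.62 ± 0.35, adjusted p = 0.00562) were the others by edgeR. The shares of contractile cells with a CA4 or EMCN UMI were 43.1% and 39.9% at 18 months, against 4.63% and 4.17% at 6 months. Without those cells, and the members that carried either gene, the values were -0.38 for GNG11, 0.03 for TCAP and -0.42 for ENSBGRG00000025660, and none of these 3 passed. GNG11 in endothelial cells was at 1616 and 1690 CPM at 18 months, against 1816 and 1664 CPM at 6 months.

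The cattle-yak was compared with the 6-month libraries in the same way, without a test and across ages, so that genotype and age cannot be told apart. Of 3053 genes 35 were at least 4-fold higher in the cattle-yak (1.15%) and 63 at least 4-fold lower (2.06%). Of the 63 lower genes 40 were not counted in the cattle-yak members, and 1 of these was at least 4-fold lower against the 3-count limit. INHBA was not counted in the cattle-yak members, which allows up to 29.9 CPM, against 458 and 327 CPM at 6 months. In stroma cells INHBA had 48.5 CPM in the cattle-yak against 573 and 425 CPM at 6 months, so it was low in both classes there. TIMP2, a metalloproteinase inhibitor gene, had 200 CPM in the cattle-yak (122 to 308), against 2233 and 1708 CPM at 6 months. Other classes differed in the same direction. Lymphocytes had 95.9 CPM of TIMP2 in the cattle-yak against 1432 and 1505 CPM at 6 months, contractile cells 352 CPM against 2562 and 1343 CPM, and stroma cells 1077 CPM against 3367 and 1866 CPM. Also lower in members were SHOX2 (0 CPM in the cattle-yak, against 132 and 98.6 CPM at 6 months), HMOX1 (9.98 CPM, against 163 and 183 CPM) and NOVA1 (9.98 CPM, against 200 and 204 CPM). For SHOX2 the limit of 29.9 CPM does not show a 4-fold difference from both 6-month libraries.

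Genes higher in cattle-yak members included TFPI2, FGL1, SERPINE2, CCN2, TCAP and EMCN. TFPI2, a protease inhibitor gene, had 609 CPM in the cattle-yak (465 to 782), against 77.1 and 24.0 CPM at 6 months. Endothelial cells had 911 CPM of TFPI2 in the cattle-yak, against 207 and 314 CPM at 6 months. SERPINE2, another protease inhibitor gene, had 788 CPM in the cattle-yak (624 to 982), against 123 and 98.6 CPM at 6 months. EMCN had 419 CPM in the cattle-yak against 63.5 and 2.40 CPM at 6 months, and 16 of the 30 cattle-yak members carried a CA4 or EMCN UMI. TCAP had 349 CPM in cattle-yak members against 4.54 and 4.81 CPM at 6 months, and it was at 1131 CPM in cattle-yak endothelial cells. In the other 27 cattle-yak members, without the 3 deepest, EMCN had 215 CPM, TCAP 132 CPM, TFPI2 215 CPM and CCN2 82.6 CPM, against 419, 349, 609 and 190 CPM in all 30. SERPINE2 had 941 CPM and FGL1 562 CPM in those 27, and HIGD1B 2543 CPM, so these did not rest on the 3 deepest cells. The part of endothelial RNA in TFPI2, TCAP and EMCN was not tested.

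Against replicate 3 at 18 months, 901 genes had enough UMIs, of which 72 were higher in the cattle-yak (7.99%) and 42 lower (4.66%). HIGD1B had 2434 CPM in the cattle-yak against 30.4 CPM in replicate 3, and ASPN had 798 CPM against 0 CPM. ADORA2A had 259 CPM in the cattle-yak against 0 CPM in replicate 3, and CXCL10, an interferon-induced chemokine gene, had 539 CPM against 0 CPM. All 54 CXCL10 UMIs of the cattle-yak lay in its 3 deepest members, against 2 of 26 ADORA2A UMIs. CA4, JAM2, TM4SF18 and TFPI2 were higher too, at 529, 549, 269 and 609 CPM in the cattle-yak against 0 CPM each in replicate 3. Cattle-yak endothelial cells had 1273, 796, 471 and 911 CPM of these genes. The 3 deepest members held 45 of 53 CA4 UMIs and 48 of 61 TFPI2 UMIs. The part of endothelial RNA in this contrast was not tested. INHBA had 0 CPM in the cattle-yak against 1126 CPM in replicate 3, EDNRA 9.98 CPM against 304 CPM and COL15A1 20.0 CPM against 365 CPM. The 4-year library had 3 members. Against both 18-month libraries 5 of 453 genes were higher at 4 years (1.10%) and 52 lower (11.5%). Of the 52 lower genes 41 were not counted at 4 years, and 1 of these was at least 4-fold lower against the limit of 319 CPM. PTN, which encodes the growth factor pleiotrophin, had 0 CPM at 4 years, with a counting limit of 319 CPM, against 1720 and 1319 CPM at 18 months. Of 581 genes 48 were higher in the cattle-yak than at 4 years (8.26%) and 12 lower (2.07%). Of the 48 higher genes 37 were not counted at 4 years, and 0 of these were at least 4-fold higher against that limit. PTN, at 758 CPM in the cattle-yak, was among the 37.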

How the data were processed

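The authors deposited matrices of raw UMI counts. The file headers name Cell Ranger 5.0.0, whereas the submitters' processing notes name version 2.1.1. No build was named in the sources used here. The files held 26961 features, of which 15722 had a symbol, and no barcode had under 500 UMIs. Mitochondrial UMIs were those of 37 features. Of 40564 barcodes 31071 were kept. Scrublet ranks (scanpy 1.11.5, expected rate 0.06, 0.8% per 1000 barcodes) were used only in an alternative. UMIs were summed per library and class. Tests used edgeR 4.0.16 in R 4.3.3 (glmQLFit, filterByExpr), and DESeq2 1.42.0 was an alternative. Fits were tested on simulated data. Library was the block because both classes came from each library. Shares have exact Clopper-Pearson intervals (scipy 1.17.1 in Python 3.11.15). Named genes were up to 12 per direction with adjusted p below 0.05, the same direction in 6 libraries and a mean of at least 50 CPM, plus list genes that passed or define a list; single-library genes were the largest past 4-fold. STMN2 in stroma, and levels given in other classes, were added after values were seen. The members and all 26 lists were chosen with earlier results of these data known. A gene that the naming rule gave is not reported here.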

Additional observations from a re-analysis of the deposited data

Results flagged for a closer look

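The change between 18 and 6 months in RGS5-led cells differed from that in contractile cells for 4 genes, by the interaction of class and age in edgeR. The interaction was -2.42 for TPM2, -2.02 for GNG11, -1.62 for ENSBGRG00000025660 and 3.45 for TCAP on the log2 scale. Without cells that carried a CA4 or EMCN UMI, TPM2 had -3.34, GNG11 -0.38, ENSBGRG00000025660 -0.42 and TCAP 0.03. TPM2 alone of the 4 then still passed. The rule limits the contractile UMIs of members, and its part in the TPM2 result was not tested.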

How the results depend on the processing

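Genes called against contractile cells numbered 177. They numbered 64 with DESeq2, 68 under a stricter cell filter (500 genes, 10% mitochondrial UMIs), 81 with at least 3 RGS5 UMIs, 268 with at least 8 contractile UMIs, 74 in the libraries with at least 20 members and 93 to 175 with each library left out. With library totals in place of TMM 172 passed, 68 higher and 104 lower, and the median of all genes was 0.08. Against stroma 222 passed, with 81 by DESeq2, 119 under that filter, 144 with no UMI of the excluded markers, 95 in the libraries with at least 20 members and 108 to 188 with each library left out. With totals 201 passed against stroma, 113 higher and 88 lower (median 0.04). Without the replicate block, that is with library left out of the fit, 16 passed against contractile cells and 4 against stroma. The classes were paired by library in the main tests. No pairing between groups was possible, because 6- and 18-month libraries share no replicate number and the cattle-yak was numbered in accession order. The interaction gave 7 genes with totals, 0 with DESeq2, 2 without CA4 or EMCN cells and 0 to 40 with each library left out.

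KCNJ8 against contractile cells turned to -0.015 without a filter on low counts, -0.17 with no excluded marker, -0.095 without CA4 or EMCN cells and -0.32 without the cattle-yak, the lowest with a library left out (highest 0.57). HIGD1B turned to 0.10 without the block. The cause was not tested. For genes picked by size, 47 of 295 repeated tests against contractile cells and 33 of 363 against stroma missed the threshold. For list genes 112 of 415 against contractile cells missed it and 5 reversed, and 194 of 647 against stroma missed it.

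The share of members moved to 1.61% and 3.47% at 6 months, 0.588% in replicate 3 and 0% at 4 years under the stricter cell filter. With at least 3 RGS5 UMIs it was 0.776% and 1.45% at 6 months and 0.353% in replicate 3, and with cells thinned to 1000 UMIs 0.989% and 1.64% at 6 months, 0.446% in replicate 3 and 1.08% in the cattle-yak. Without CA4 or EMCN cells it was 0.367% in the cattle-yak. Changed genes numbered 57 between 4 years and 18 months (21 at 50 UMIs, 24 with 3 RGS5 UMIs), 60 between the cattle-yak and 4 years (22 at 50 UMIs), 146 between replicate 3 and 6 months (261 with 1 CPM added, 59 at 50 UMIs, 239 with 3 RGS5 UMIs), 114 between the cattle-yak and replicate 3 (48 at 50 UMIs) and 98 between the cattle-yak and 6 months (185 with 1 CPM, 48 at 50 UMIs). Settings for CA4 or EMCN, libraries with at least 20 members, the last 3 of these contrasts leave-one-out of the interaction, the 3 deepest cattle-yak members and the 3-count limit on called genes were chosen after seeing the data. The age test within members and its alternatives were not run.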
